A study of Mus musculus with 4 samples.

Results

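The RNA levels of 10 genes for neurotrophic factors and their receptors were examined in the lumbar spinal cord, out of 18674 gene names in the table. They were chosen by name, with earlier results of these data known. They comprise 5 ligands (Bdnf, Gdnf, Cntf, Vegfa and Igf1) and 5 receptors (Ngfr, Ntrk2, Ntrk3, Gfra1 and Cntfr), and all 10 were found, in 26 transcript rows. In GRCm38 with the GENCODE M21 annotation the ligand genes are Bdnf (chr2:109674700-109727007, plus strand), Gdnf (chr15:7810846-7837575, plus), Cntf (chr19:12763660-12765632, minus), Vegfa (chr17:46016993-46032369, minus) and Igf1 (chr10:87858265-87937042, plus). The receptor genes are Ngfr (chr11:95568818-95587735, minus), Ntrk2 (chr13:58806569-59133970, plus), Ntrk3 (chr7:78175959-78738012, minus), Gfra1 (chr19:58235604-58455909, minus) and Cntfr (chr4:41657498-41697089, minus), and the values refer to their spliced transcripts. The 4 libraries came from wild type (WT) mice given vehicle, WT mice given spermidine (SD), G93A mice given vehicle and G93A mice given SD, with 1 library for each. G93A mice carry a transgene for a mutant human SOD1 and are a model of amyotrophic lateral sclerosis (ALS), according to the methods from a high-expresser line on a mixed B6 and SJL background. The mice were sampled at 100 days of age, and the methods state that treatment studies used males alone. SD, a polyamine, or PBS had been given for 30 days, 4 times in each week. The number of mice behind a library is not given in the sources used here, and no difference between conditions below has a replicate check, so no p-value is given.

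Neurotrophic factors are secreted proteins that keep neurons alive and shape their connections. BDNF acts through the receptor tyrosine kinase TrkB (the product of Ntrk2), neurotrophin 3 through TrkC (Ntrk3), and all neurotrophins bind p75 (Ngfr), a receptor without kinase activity. GDNF binds a membrane-anchored co-receptor (Gfra1) that works with the kinase Ret, while CNTF binds its own anchored receptor (Cntfr), which then joins the signalling chains encoded by Lifr and Il6st. IGF-1 and VEGF-A act through kinases on neurons, glia and vessels. Motor neurons of the cord are classic target cells of GDNF, CNTF and BDNF.

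The values were treated as RPKM, reads scaled to the length of the transcript and the size of the library, because the table names no unit. Depth was estimated at 36800000 to 38600000 read pairs per library from the spacing of low values, so that the libraries were of similar precision. Cord glia and neurons were seen in every library through their marker genes. All 9 microglial markers were higher in G93A than in WT, both under vehicle and under SD, and their summed level was 68.2 to 74.9 RPKM in the WT libraries and 327 to 333 RPKM in the G93A libraries. The summed level of 6 astrocyte markers was 929 to 990 RPKM in WT and 3066 to 3639 RPKM in G93A, and that of 7 motor neuron markers 385 to 406 RPKM in WT and 143 to 220 RPKM in G93A. The 6 markers of other spinal neurons in the table were all lower in G93A in both comparisons, with sums of 1496 and 1523 RPKM in WT and 799 and 927 RPKM in G93A. The differences in the astrocyte and neuron sums mainly followed 1 gene each, Gfap, Nefh and Snap25. With vehicle and SD, Gfap had 441 and 386 RPKM in WT and 2269 and 2707 RPKM in G93A. Nefh had 327 and 313 RPKM in WT and 160 and 99.2 RPKM in G93A. Snap25 had 1268 and 1292 RPKM in WT and 782 and 661 RPKM in G93A. In bulk tissue, fewer cells of a type and less RNA per cell cannot be told apart, and the part of these shifts in any value below was not tested.

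The first question was which factors and receptors differed between G93A and WT cord. Igf1, Cntf, Gfra1 and Gdnf were at least 1.5-fold higher in G93A cord under vehicle, Vegfa was at least 1.5-fold lower, and Bdnf, Ngfr, Ntrk2, Ntrk3 and Cntfr lay within 1.5-fold. Thus 4 of the 10 genes were higher, where 20.7% of all names with a value were, and 1 of 10 was lower, where 10.5% were. The SD libraries form a second genotype comparison that shares no library with the first. In G93A + SD against WT + SD the same 4 genes were higher and Vegfa was again lower, against 23.8% and 12.8% of all names. In both comparisons together, 4 of 10 were at least 1.5-fold higher (14.9% of all names) and 1 of 10 was lower (5.11%). By order alone, both G93A libraries lay above both WT libraries for 6 of the 10 genes (39.7% of all names), the additional ones being Bdnf and Ntrk2, and below them for Vegfa and Cntfr (28.0%). Ngfr and Ntrk3 overlapped between the genotypes. The median log2 fold change of the 10 genes was 0.47 under vehicle and 0.53 under SD, against 0.060 and 0.064 over all names. Since the 10 genes were chosen with earlier results of these data known, these comparisons with all names are no test of the list.

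**Figure D1:**
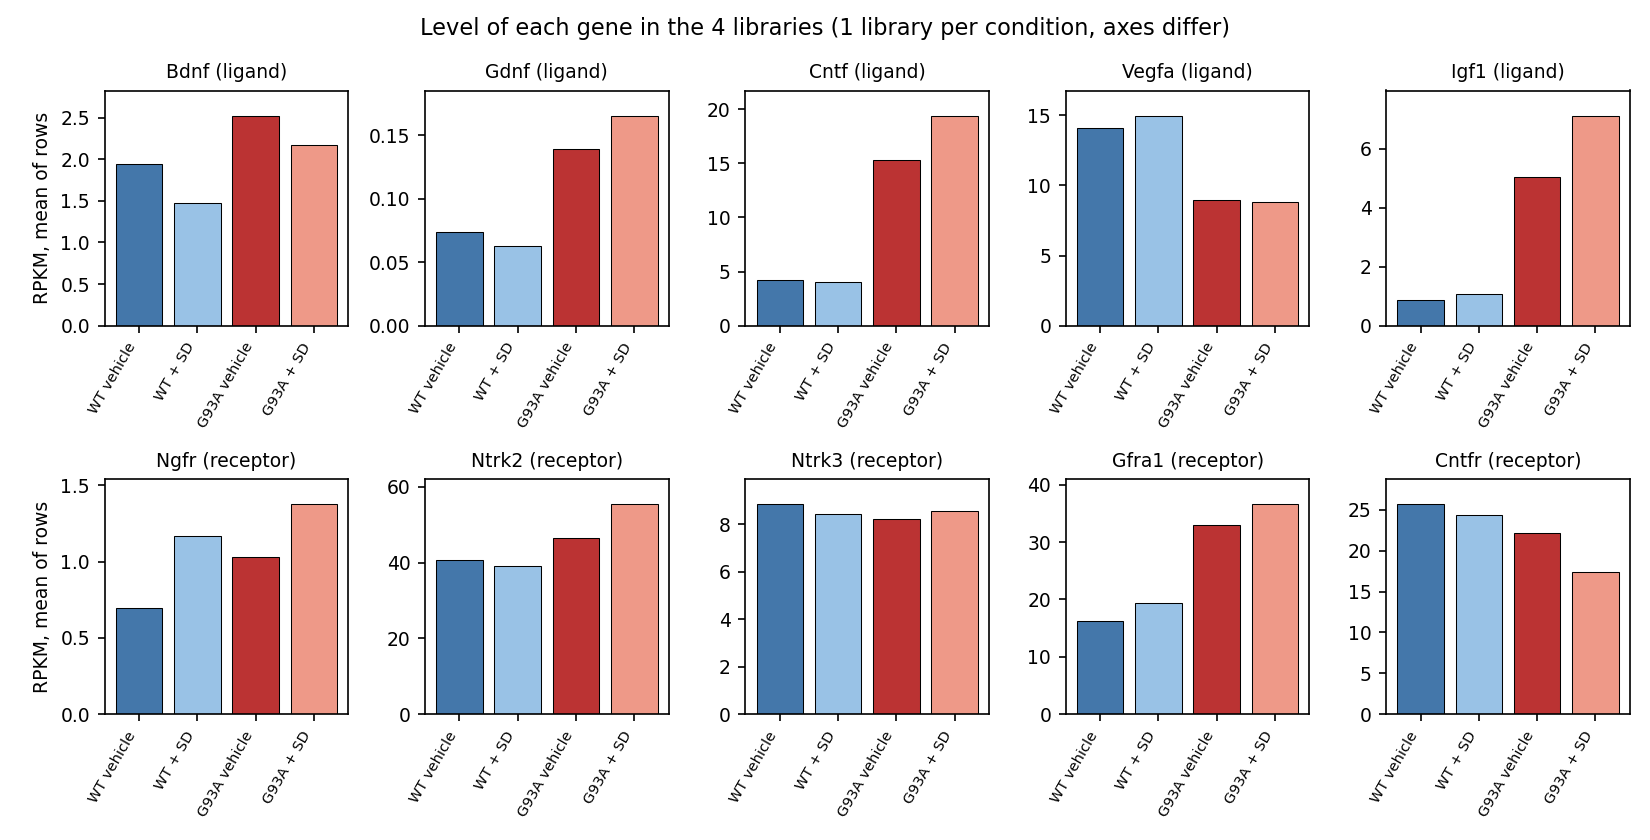
Level of each gene in RPKM (mean of its rows, vertical axes from 0 and different for each gene) in the 4 libraries, 1 bar per library and 1 library per condition. Both G93A bars stand above both WT bars for Igf1, Cntf, Gfra1, Gdnf, Bdnf and Ntrk2 and below them for Vegfa and Cntfr.

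Among the ligands, Igf1, a growth factor made in the injured nervous system largely by glia, had the highest fold. Its level was 0.887 RPKM with vehicle and 1.08 RPKM with SD in WT, against 5.02 RPKM with vehicle and 7.12 RPKM with SD in G93A. Both G93A libraries thus lay far above both WT libraries, by 5.66-fold under vehicle and 6.57-fold under SD. Igf1 is listed in 5 transcript rows, and each of them was higher in G93A, by 4.59-fold to 15.7-fold under vehicle and 5.54-fold to 13.2-fold under SD. The upper ends belong to the row NM_184052, which had 0.356 RPKM (vehicle) and 0.591 RPKM (SD) in WT, below the 1.01 to 1.21 RPKM of the other rows, but 5.59 and 7.78 RPKM in G93A, above them. The antisense gene Igf1os overlaps Igf1, and without a statement that strand was used in counting their reads cannot be told apart.

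Cntf, a cytokine without a signal peptide that is stored in astrocytes and Schwann cells, was also several-fold higher. It had 4.23 RPKM (vehicle) and 4.04 RPKM (SD) in WT cord, and 15.3 RPKM (vehicle) and 19.4 RPKM (SD) in G93A cord. The WT libraries lay close together, and the G93A libraries were 3.61-fold and 4.80-fold above the WT library of the same treatment. Cntf lies within the longer gene Zfp91, whose readthrough transcripts run into it. Of the windows of 53 bases (the read length) in the Cntf transcript, 78.0% also occur in a Zfp91 transcript, so that part of its value could be readthrough RNA. The readthrough row, Zfp91-Cntf, had 16.03 RPKM with vehicle and 17.4 RPKM with SD in WT, against 19.0 RPKM with vehicle and 21.1 RPKM with SD in G93A, while Zfp91 itself had between 33.3 and 36.8 RPKM with overlapping genotypes. Neither reached 1.5-fold in any comparison.

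Gdnf, the most studied survival factor of motor neurons, was the lowest of the 10 genes in every library. Its level was 0.0735 RPKM (vehicle) and 0.0626 RPKM (SD) in WT cord, and 0.139 RPKM (vehicle) and 0.165 RPKM (SD) in G93A cord. These values correspond to an estimated 9.95, 8.80, 19.4 and 23.4 read pairs. The G93A libraries were 1.89-fold and 2.64-fold higher, but on so few reads that the difference under vehicle no longer reached 1.5-fold with 0.1 RPKM added to both values (log2 fold change 0.46), and neither difference did with 1 RPKM added.

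Bdnf, the ligand of TrkB, differed less. It had 1.94 RPKM with vehicle and 1.48 RPKM with SD in WT, against 2.52 RPKM with vehicle and 2.17 RPKM with SD in G93A. It was therefore 1.30-fold higher in G93A under vehicle and 1.47-fold higher under SD, short of 1.5-fold in both. Its 4 rows were nearly alike, between 1.46-fold and 1.47-fold under SD. An antisense gene, Gm45346, overlaps Bdnf.

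Vegfa, an angiogenic factor that also protects motor neurons, was the only member at least 1.5-fold lower in G93A. Its level was 14.1 RPKM (vehicle) and 14.96 RPKM (SD) in WT cord, and 8.95 RPKM (vehicle) and 8.83 RPKM (SD) in G93A cord. Within each genotype the libraries were nearly equal, and WT lay above G93A by 1.58-fold under vehicle and 1.69-fold under SD. All 6 rows of Vegfa behaved alike, with ratios of G93A to WT of 0.626 to 0.643 under vehicle and 0.577 to 0.602 under SD. Beside it, the summed level of 5 endothelial markers was 25.6 RPKM with vehicle and 23.1 RPKM with SD in WT, against 23.9 RPKM with vehicle and 16.8 RPKM with SD in G93A.

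**Figure D2:**
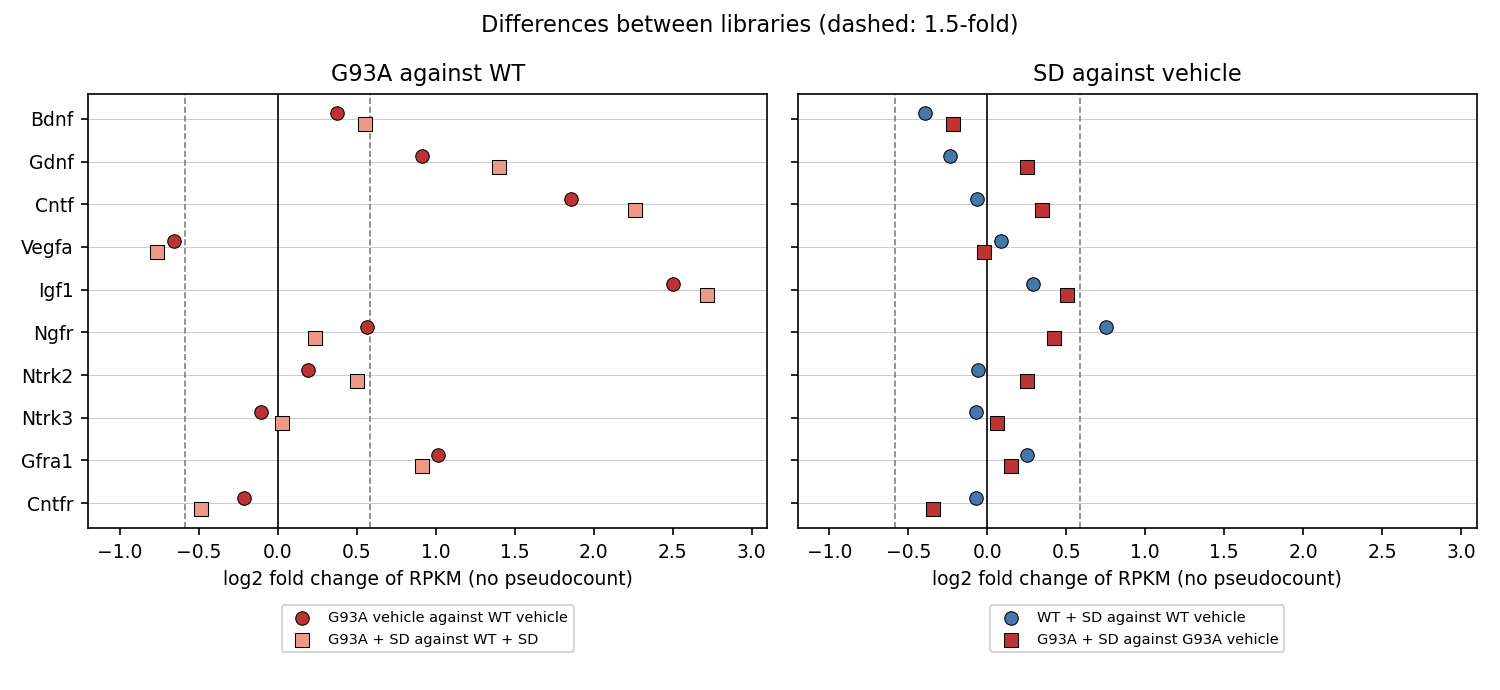
Log2 fold change of the RPKM of each gene (horizontal axis, no pseudocount) between genotypes on the left and between SD and vehicle on the right, 1 symbol per pair of libraries, with 1.5-fold as dashed lines. On the left Igf1, Cntf, Gdnf and Gfra1 lie beyond 1.5-fold to the right with both symbols and Vegfa to the left, whereas on the right only Ngfr in WT passes the line.

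Among the receptors, Gfra1, the co-receptor that binds GDNF, was the only one at least 1.5-fold different between genotypes in the mean of its rows. It had 16.3 RPKM (vehicle) and 19.4 RPKM (SD) in WT cord, and 33.0 RPKM (vehicle) and 36.6 RPKM (SD) in G93A cord. Both G93A libraries were clearly above both WT libraries, 2.02-fold under vehicle and 1.88-fold under SD. Of the 7 motor neuron markers, 6 were lower in G93A by any amount under vehicle and under SD, among them Chat, the enzyme that makes acetylcholine (9.83, 8.57, 6.55 and 4.33 RPKM in the same order), and the transcription factor Isl1 was higher (0.770, 0.760, 0.806 and 0.812 RPKM). Ret, the kinase with which Gfra1 signals, had between 16.01 and 18.2 RPKM in all 4 libraries.

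Ntrk2 is listed in 2 rows that part after a shared exon. The full-length form goes on to the exons for the kinase, and the truncated form, known mainly from astrocytes, ends with a short tail of its own and lacks the kinase. Ntrk2 lies on chromosome 13 of GRCm38, and the junctions are shown because the rows differed in their response, with the bases of the shared exon (58878163 to 58878262, plus strand) in lower case and the first bases of the following exon in capitals. In the truncated form the capitals (58932023 to 58932060) end with its stop codon, and in the full-length form they start at 58985802.
Full-length Ntrk2: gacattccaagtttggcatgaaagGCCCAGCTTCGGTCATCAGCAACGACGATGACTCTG
Truncated Ntrk2: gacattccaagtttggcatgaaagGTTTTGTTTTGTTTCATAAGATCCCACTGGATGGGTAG

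The full-length Ntrk2 row had 36.4 RPKM with vehicle and 35.6 RPKM with SD in WT, against 36.4 RPKM with vehicle and 41.2 RPKM with SD in G93A. The truncated row had 45.2, 42.8, 56.8 and 69.7 RPKM in the same order. The full-length row thus had the same value to 3 digits in both vehicle libraries and was 1.16-fold higher in G93A under SD, whereas the truncated row was 1.26-fold and 1.63-fold higher in G93A. The ratio of the truncated to the full-length row was 1.24 (vehicle) and 1.20 (SD) in WT and 1.56 and 1.69 in G93A, higher in both G93A libraries. Reads in shared exons appear to count in both rows. If coverage were even, the annotated lengths held and no other forms existed, the values would correspond to 30.9, 30.5, 28.3 and 30.8 RPKM of the full-length form and 27.6, 25.4, 40.7 and 52.2 RPKM of the truncated form, in the order WT and WT + SD, then G93A and G93A + SD. This estimate was added after the values were seen. Averaged over its rows, Ntrk2 was the most abundant of the 10 genes in every library and stayed within 1.5-fold, at 1.14-fold and 1.41-fold. Of the astrocyte markers, Gfap was 441, 386, 2269 and 2707 RPKM and the glutamate transporter Slc1a2 216, 211, 216 and 233 RPKM in the same order of libraries.

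Ntrk3 has a full-length and a truncated row in the same way. The gene lies on chromosome 7 of GRCm38 on the minus strand, and the capitals start at 78260414 for the full-length form and at 78304426 for the truncated form and run towards lower positions.
Full-length Ntrk3: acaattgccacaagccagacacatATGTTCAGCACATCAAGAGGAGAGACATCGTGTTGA
Truncated Ntrk3: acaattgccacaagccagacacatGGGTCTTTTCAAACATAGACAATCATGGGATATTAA

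The full-length Ntrk3 row had 6.05 RPKM (vehicle) and 5.67 RPKM (SD) in WT cord, and 5.13 RPKM (vehicle) and 5.32 RPKM (SD) in G93A cord, and the truncated row 11.6, 11.2, 11.3 and 11.8 RPKM. For TrkC it was thus the full-length row that was lower in both G93A libraries, while the truncated row overlapped between genotypes. The ratio of truncated to full-length row was 1.92 and 1.97 in the WT libraries and 2.20 and 2.21 in the G93A libraries. As a whole Ntrk3 was the steadiest member, between 8.22 and 8.84 RPKM in the 4 libraries.

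**Figure D3:**
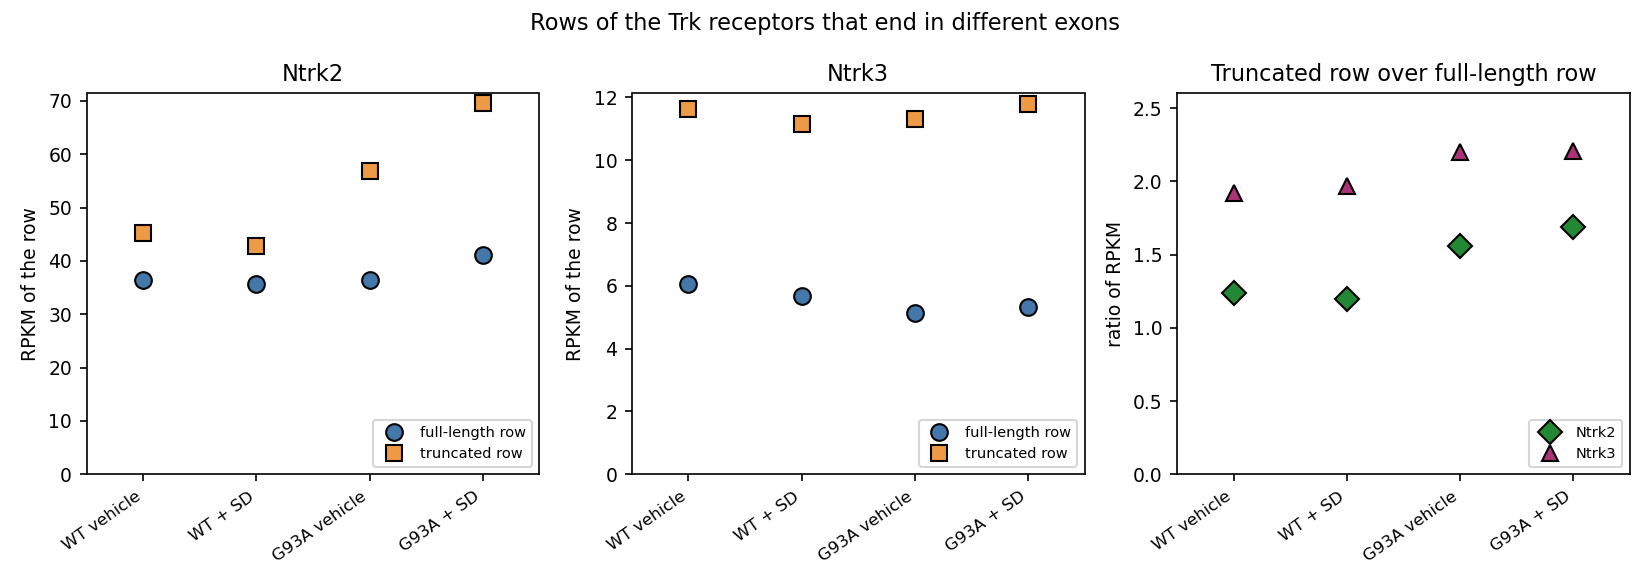
RPKM of the full-length and truncated rows of Ntrk2 and Ntrk3 in each library, and the ratio of the truncated to the full-length row (vertical axes from 0, 1 symbol per library). The ratio of Ntrk2 goes from 1.20 to 1.24 in WT to 1.56 to 1.69 in G93A, and that of Ntrk3 from 1.92 to 1.97 to 2.20 to 2.21.

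Cntfr, the binding receptor of CNTF, was lower in both G93A libraries without reaching 1.5-fold. It had 25.7 RPKM with vehicle and 24.4 RPKM with SD in WT, against 22.1 RPKM with vehicle and 17.5 RPKM with SD in G93A. WT was 1.16-fold above G93A under vehicle and 1.40-fold above it under SD, so that ligand and receptor lay in opposite order. The neuronal markers given above were lower in G93A along with Cntfr, as they were along with Vegfa, and their part in either value was not tested. Of its 3 rows, NM_001146080 passed the threshold under SD, with a ratio of G93A + SD to WT + SD of 0.621. Ngfr had 0.693 RPKM (vehicle) and 1.17 RPKM (SD) in WT cord, and 1.03 RPKM (vehicle) and 1.38 RPKM (SD) in G93A cord. The genotypes overlapped for Ngfr, and G93A was 1.48-fold higher under vehicle and 1.18-fold higher under SD.

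The second question was whether the genes differed between SD and vehicle. In WT cord, 1 of the 10 genes, Ngfr, was at least 1.5-fold higher with SD (7.40% of all names) and 0 were lower (8.82%). In G93A cord 0 of the 10 genes were at least 1.5-fold higher (8.89%) and 0 were lower (7.46%). Ngfr was higher with SD in both genotypes, 1.68-fold in WT and 1.34-fold in G93A, on an estimated 87.9 and 154 read pairs in WT and 135 and 183 in G93A. Since p75 is also a Schwann cell protein, markers of these cells were looked at beside it. Prx, a protein of peripheral myelin, had 0.129 and 0.150 RPKM (vehicle and SD) in WT and 0.271 and 0.442 RPKM in G93A. Egr2, a regulator of myelination, had 0.116 and 0.0829 RPKM in WT and 1.40 and 1.68 RPKM in G93A, and the lipid-binding protein Pmp2 had 0.277 and 0.262 RPKM in WT and 0.0772 and 0.189 RPKM in G93A. Thus Prx, like Ngfr, was higher with SD in both genotypes, Prx by 1.16-fold in WT and 1.63-fold in G93A. Egr2 and Pmp2 were higher with SD in G93A only. Most of these values are low and no read pairs were estimated for them, so the directions are uncertain. The part of Schwann cells in the value of Ngfr was not tested.

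Among the genes that were higher in G93A vehicle, SD was not accompanied by lower values. In G93A + SD, Igf1 was 1.42-fold, Cntf 1.27-fold, Gdnf 1.19-fold and Gfra1 1.11-fold above G93A vehicle. Vegfa was almost the same in both G93A libraries (1.01-fold higher under vehicle) and therefore remained below WT. Bdnf was lower with SD in both genotypes, with vehicle 1.31-fold above SD in WT and 1.16-fold in G93A. These comparisons share the G93A vehicle library with the genotype comparison under vehicle, and none of these differences reached 1.5-fold.

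Because RPKM are per length, levels can be set side by side between genes, though only roughly. The values are means of rows that can share reads, and the transcript lengths the authors used are not known. Part of the Cntf value could also be readthrough RNA. In WT vehicle the order from high to low was Ntrk2, Cntfr, Gfra1, Vegfa, Ntrk3, Cntf, Bdnf, Igf1, Ngfr and Gdnf. In G93A vehicle Gfra1 stood above Cntfr, Cntf above Vegfa and Ntrk3, and Igf1 above Bdnf. Neighbours such as Gfra1 and Vegfa in WT vehicle (16.3 and 14.1 RPKM) or Vegfa and Ntrk3 in G93A vehicle (8.95 and 8.22 RPKM) cannot be ordered with confidence, since the spread between animals is unknown.

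The other genes of these pathways were then read from a list of 55 genes. This list too was chosen with earlier results of these data known, so its shares are descriptive. All 55 were in the table, and 18 were at least 1.5-fold higher in both genotype comparisons and 1 was lower, beside the 14.9% and 5.11% given above for all names. The higher genes were concentrated in the family of CNTF and LIF, with 8 of 12, and the binding proteins of IGF, which gave all 4 higher genes of the 12 in the IGF family. The counts were 2 of 8 for the neurotrophins, 1 of 8 for the GDNF family, 1 of 9 for the VEGF family and 2 of 6 for the other factors. Of the 55 genes, 36 averaged 1 RPKM or more, and most of those that passed in both comparisons are named below.

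In the family of CNTF and LIF, Osmr, the receptor for oncostatin M, had 1.08 RPKM (vehicle) and 1.02 RPKM (SD) in WT cord, and 11.4 RPKM (vehicle) and 17.4 RPKM (SD) in G93A cord, at least 10-fold above WT in both pairs. The ligands Clcf1 (0.902, 0.253, 2.50 and 3.93 RPKM), which uses the same receptor complex as CNTF, and Ctf1 (0.634, 0.730, 1.51 and 2.47 RPKM) were also higher. Il6ra, the receptor for interleukin 6, was 2.77-fold higher in G93A under vehicle and 2.83-fold under SD. The shared signalling chain Il6st was 1.42-fold higher in G93A under vehicle and 1.63-fold under SD, whereas Lifr was lower, with WT 1.27-fold and 1.39-fold above G93A.

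In the IGF family, the receptors Igf1r, Igf2r and Insr lay within 1.5-fold in both genotype comparisons. Igf1r, the receptor of IGF-1, had between 5.92 and 6.73 RPKM in the 4 libraries. The binding protein Igfbp2 had 10.2 RPKM with vehicle and 14.0 RPKM with SD in WT, against 95.7 RPKM with vehicle and 133 RPKM with SD in G93A, the largest difference in RPKM between genotypes among the 55 genes under vehicle and under SD. Igfbp3 (3.01, 3.11, 12.8 and 27.7 RPKM), Igfbp5 (14.7, 15.6, 46.8 and 80.1 RPKM) and Igfbp7 (12.2, 12.3, 25.2 and 26.4 RPKM) were higher in both pairs too. Igfbp4 went in opposite directions, being 1.53-fold higher in G93A under vehicle, while under SD WT was 1.74-fold above G93A.

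Of the remaining genes, Hgf, a factor that protects motor neurons, had 0.317 RPKM (vehicle) and 0.336 RPKM (SD) in WT cord, and 1.89 RPKM (vehicle) and 2.87 RPKM (SD) in G93A cord, and its receptor Met had 1.29, 1.64, 5.30 and 7.58 RPKM. Ligand and receptor were thus both above 4-fold higher in G93A in both pairs. Nrp1, a co-receptor of VEGF and semaphorins, had 5.87, 5.56, 11.5 and 13.03 RPKM, while Kdr, the main kinase receptor of VEGF-A, had 2.27, 2.35, 1.63 and 1.27 RPKM. Sorcs2, a partner of p75, had 5.41, 4.86, 8.16 and 8.19 RPKM and lay just past the threshold under vehicle (1.51-fold). Sort1, the other receptor of pro-neurotrophins in the list, was lower in G93A, at 62.0, 64.1, 53.8 and 52.6 RPKM.

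Between SD and vehicle, 11 of the 55 genes were at least 1.5-fold higher and 3 lower in G93A cord, and 4 were higher and 5 lower in WT cord. Over all names the shares were 8.89% and 7.46% in G93A and 7.40% and 8.82% in WT. The counts in WT and the lower count in G93A were near these shares. Among those averaging 1 RPKM or more, 7 of 36 were higher (1.34% of all names at that level) and 0 were lower (1.04%) in G93A, among them Igfbp3 (2.16-fold), Igfbp5 (1.71-fold), Ctf1 (1.64-fold), Clcf1 (1.57-fold), Osmr (1.52-fold) and Hgf (1.52-fold). In WT, 2 of 36 were higher (0.909% of all names at that level), among them Igfbp4 (1.999-fold), so the higher count was above this share. Clcf1 (a ratio of 0.280) was the 1 of 36 that was lower in WT (1.36%). The 7 genes higher in G93A were also at least 1.5-fold higher in both genotype comparisons, and thus lay farther from WT with SD than with vehicle. The astrocyte markers were higher with SD in G93A as well, by any amount in 6 of 6, and the part of this was not tested.

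**Figure D4:**
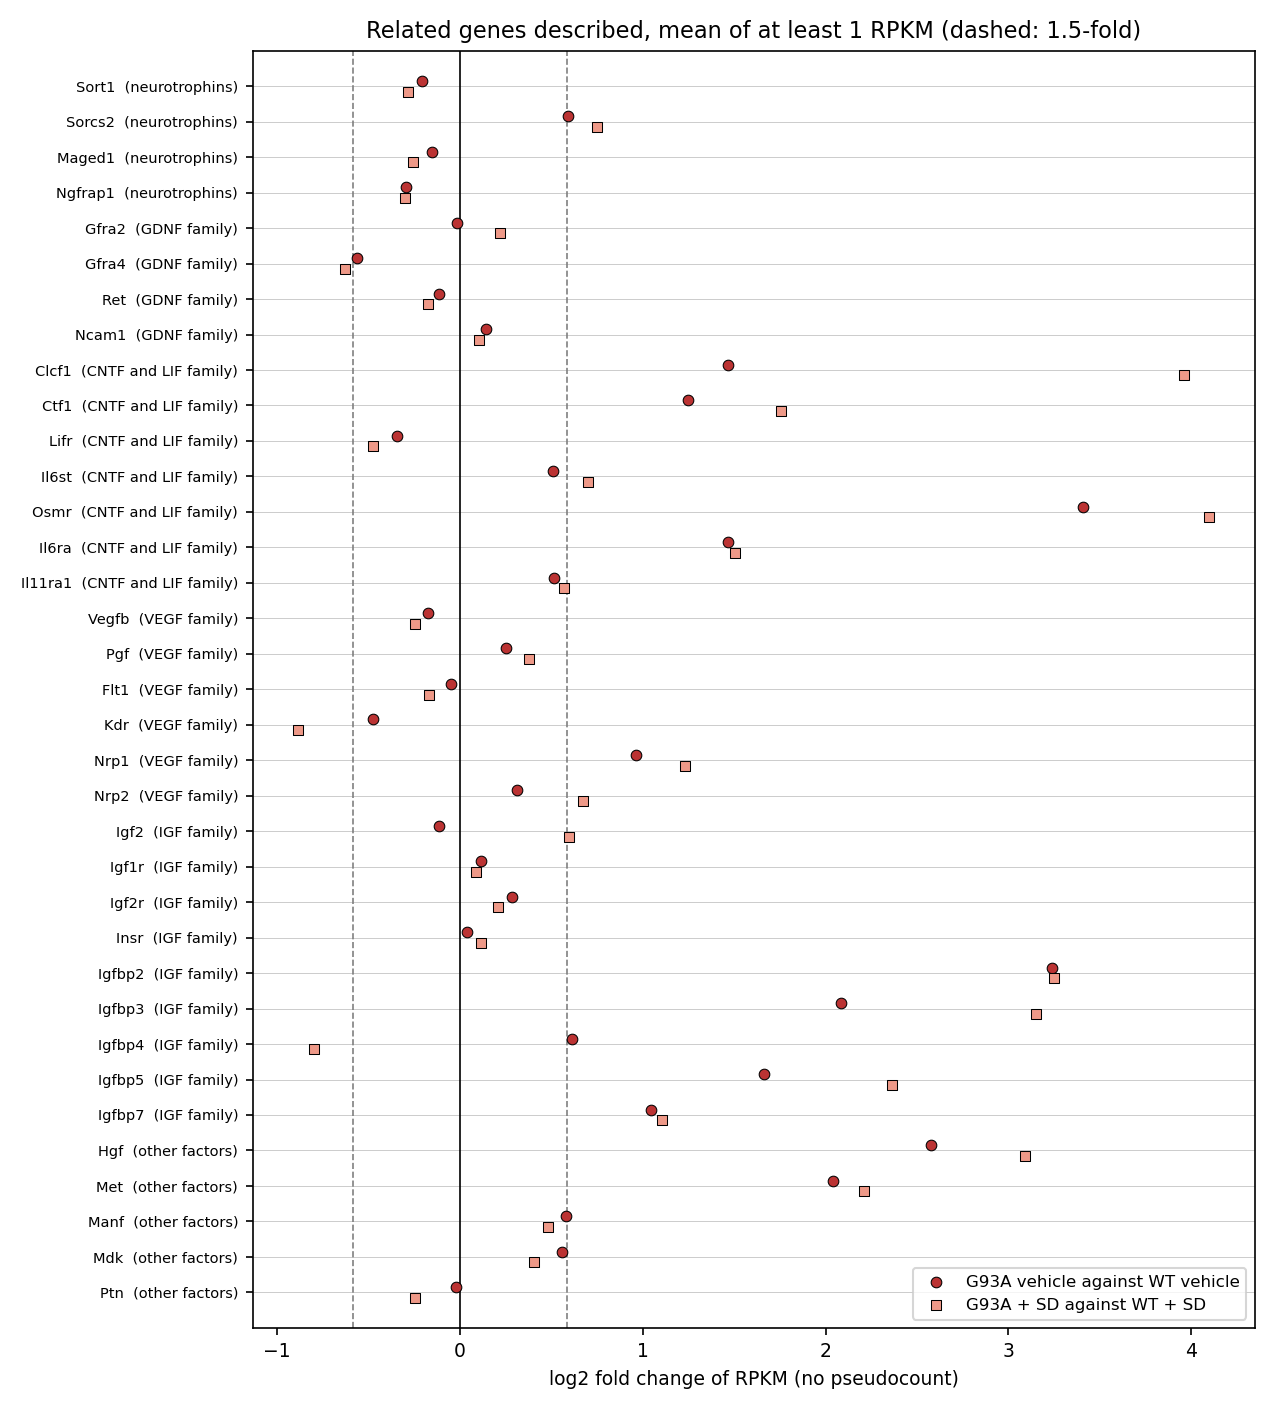
Log2 fold change of RPKM (horizontal axis, no pseudocount) of the related genes described, averaging 1 RPKM or more, between G93A and WT under vehicle (circles) and under SD (squares), with 1.5-fold as dashed lines. Osmr and Igfbp2 lie farthest to the right under vehicle and Osmr and Clcf1 under SD, and Igfbp4 has its symbols on opposite sides.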

How the data were processed

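RNA of the lumbar spinal cord was polyA-selected and sequenced as 53 base reads, and the methods name STAR as the aligner (also in the submitters' processing notes), GRCm38 as the genome, and HTSeq with Ensembl genes for counting. The authors deposited 1 table of RefSeq transcripts in 23750 rows with 1 value column per library and no unit in its header. The deposited values were taken as RPKM, since multiplied by transcript length they summed to nearly the same total in each library, and how the authors got from counts to these values is not given in the sources used here. The ratio columns hold the authors' own comparisons between libraries and were not used.

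A gene's value is the mean of the rows of its name, and a gene counted as higher or lower where the ratio of values was at least 1.5, the threshold of the study, with no pseudocount and no filter. Where only 1 of the libraries compared was at 0 the gene counted as different, and percentages of all names leave out names at 0 in both libraries of a comparison, except that those over the genotype comparisons together take all names. With 1 library per group no test was run. The members and lists were chosen with earlier results of these data known. Related genes were named where they had a mean of at least 1 RPKM and differed at least 1.5-fold the same way in both genotype comparisons or between SD and vehicle in either genotype, and some others are named beside them as ligand or receptor partners, chosen after their values were seen. Marker lists of motor neurons, other spinal neurons, microglia, astrocytes, endothelium and Schwann cells are given beside the results they bear on. A few genes of the lists are not reported here, although counts over a list include them.

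Transcript lengths, exons, gene positions and sequences came from GENCODE M21 (GRCm38), paired by RefSeq accession for 97.0% of the rows and for 21 of the 26 rows of the members. These lengths can differ from those the authors used. Depth was read from the commonest product of a low value and its transcript length above 500 bases, taken as 1 read pair. Numbers of read pairs are thus estimates without an interval. Alternatives were median-ratio scaling, pseudocounts of 0.1 and 1 RPKM, a mean of at least 1 RPKM, a threshold of 2-fold, any row of a name and the row with the highest mean. Leaving out names at 0 was added after seeing the data. The software was pandas 2.3.3 and numpy 2.4.6 under Python 3.11.15, with matplotlib 3.10.9 for plots, and the calls were tested on simulated data.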

Additional observations from a re-analysis of the deposited data

Results flagged for a closer look

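The difference between SD and vehicle went in opposite directions in WT and G93A cord for 3 genes among the members and the related genes named by rule, counting only differences of at least 1.1-fold in each genotype. For Gdnf the ratio of SD to vehicle was 0.851 in WT and 1.19 in G93A, on the few read pairs given above. For Clcf1, a ligand of the CNTF receptor complex, it was 0.280 in WT and 1.57 in G93A. For Igfbp4 it was 1.999 in WT and 0.751 in G93A. Each ratio rests on 1 library against 1 library, and the difference between genotypes was not tested.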

How the results depend on the processing

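No paired analysis was possible because the labels and columns carry no replicate numbers, with 1 library per condition. Of 160 fold changes of the members under alternatives, 155 kept their direction and their side of 1.5-fold or were below it in both, 4 no longer reached it, 1 newly reached it and 0 reversed. Those 4 are Gdnf under pseudocounts, in both genotype comparisons, and Ngfr with SD in WT, whose log2 fold change was 0.36 with a pseudocount of 1 RPKM (0 members higher). Truncated Ntrk2, the row with the highest mean, reached 0.70 under SD. At 2-fold, Vegfa was not lower in either genotype comparison (0 members) and Ngfr not higher with SD (0 members). With any row of a name, 2 members were lower in G93A + SD (Vegfa and Cntfr) and 2 were higher with SD in WT (Ngfr and Igf1).

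Counts of the 55 related genes depended on low values. With pseudocounts of 0.1 and 1 RPKM and with only genes averaging 1 RPKM or more, the genes lower in G93A under vehicle went from 4 to 1, 0 and 0, and under SD from 5 to 1 (pseudocount of 1 RPKM) and 3 (averaging 1 RPKM or more). In the same order of settings, the genes higher with SD in WT went from 4 to 2, 1 and 2 and the lower ones from 5 to 3, 1 and 1. In G93A the higher ones went from 11 to 6, 3 and 7 and the lower ones from 3 to 1, 0 and 0.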
